A study of Mus musculus with 20 samples.

Results

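I0-E4 was the longest of the single-laser exposures given to N2A cells at the lowest of the intensities, and the 3 I0-E4 samples were compared with the 3 unexposed samples (NC) of the same batch. These 6 samples were taken by their titles from 20 samples in all. N2A (Neuro2A) is an established mouse neuroblastoma line. Whole wells of a 384-well glass-bottom plate were scanned with a pulsed near-infrared laser through a 20X objective, and the cells were lysed 1 h after exposure. I0-E4 received a fluency, the energy deposited per area, of 95 J/cm2 at a pixel dwelling time of 20 µs. I0-E2 and I0-E0, which had the same intensity, received 48 J/cm2 at 10 µs and 10 J/cm2 at 2 µs. I2-E2 received 48 J/cm2 at a higher intensity and 2 µs, and NC wells were handled alike without laser light. Batch 1 held these 5 groups with 3 samples each. The labels do not say that replicates were separate cultures, so p-values measure the spread between wells, which may be technical.

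Light absorbed by a cell can heat it, break membranes and make reactive oxygen species. Cells answer such insults within the hour through known transcription programs: immediate-early factors such as FOS and EGR1 downstream of the ERK kinases, heat shock factor and its chaperones, NRF2 and its antioxidant enzymes, ATF4 and the unfolded protein sensors for damaged proteins, and p53 for damaged DNA. The comparison asks whether any of these, or any other gene, differed 1 h after the highest fluency of the batch.

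No gene differed between I0-E4 and NC at an adjusted p under 0.05 (0 of 12302 genes tested, 0%; edgeR's quasi-likelihood test, Benjamini-Hochberg), and none passed the Bonferroni correction. DESeq2 called 1, which shares reads with a copy and is described with the genes of smallest p. The smallest adjusted p was 0.61. At an unadjusted p under 0.05, 513 genes lay above NC (4.17% of those tested) and 463 lay below (3.76%). The 3 I0-E4 libraries all lay above the 3 NC libraries for 819 genes (6.66%) and all below for 744 (6.05%). Differences are given throughout as log2 of I0-E4 over NC, and levels as CPM, counts scaled to a common library total. The median difference over all genes was 0.003. The precision was high for most genes: the 95% interval of the difference lay within 1.5-fold in either direction for 9166 of the 12302 genes (74.5%), and for 8608 of the 9066 genes with a mean of at least 10 CPM (94.9%). Of the latter, 15 had an estimate past 1.5-fold and 4 past 2-fold. All values are relative to a library's total, so neither a loss of all RNA per cell alike nor a loss of cells would show in them. The median SE over all genes was 0.11. Without a filter on low counts, 173 of 25313 genes passed the threshold, 111 above and 62 below NC, of which 159 were among the 12302 genes of the filtered test.

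Total estimated counts were 6692637, 5623685 and 8280080 in I0-E4 replicates 1, 2 and 3 and 8322567, 8257765 and 6460014 in NC replicates 1, 2 and 3. The cells carried their label's markers: Hand2 and Gata2, transcription factors of the sympathetic lineage, averaged 301 and 187 TPM, which is also scaled by transcript length, in I0-E4. The summed TPM of the 30 neuroblastoma genes listed was 5647 to 5881 in I0-E4 and 5560 to 5711 in NC. Nefl, Nefm, Chat and Slc18a3 of that list were near or at 0. Summed markers of fibroblasts, macrophages, epithelium, endothelium, glia and red cells stayed under 10 TPM each in all 6 libraries, from 8.89 to 9.83 TPM in I0-E4 and 5.64 to 8.11 TPM in NC for the endothelial list and overlapping for the other 5, with Csf1r, Adgre1, Epcam, Krt18 and Olig2 at 0 in both groups.

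One gene, Map7d2, passed both tests of isoform shares under every setting tried, while its total did not pass. Map7d2, on the plus strand of the X chromosome, encodes a microtubule-associated protein of the MAP7 family, which binds microtubules and the motor kinesin-1. Its total was 165 ± 8.70 CPM in NC and 174 ± 13.7 in I0-E4 (SD, n = 3, adjusted p = 0.814 by edgeR's quasi-likelihood test). The isoform Map7d2-201 was at 43.6, 37.6 and 45.7 CPM in NC and 14.6, 13.7 and 10.7 CPM in I0-E4, with every I0-E4 library below every NC library. The longer isoform Map7d2-203 was at 91.5, 98.5 and 96.6 CPM in NC and 134, 139.9 and 123 CPM in I0-E4, all 3 above all NC libraries. The third isoform, Map7d2-204, overlapped between the groups. As a share of the gene's TPM, Map7d2-201 made up 21.5 ± 0.832% in NC and 6.49 ± 0.518% in I0-E4 (SD, n = 3).

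The shift in Map7d2 isoform shares had an adjusted p of 8.26e-05 by edgeR's usage test and 2.13e-05 by limma's diffSplice on voom values. It stayed under 0.05 in all 10 alternatives of the first test (highest 0.00273) and all 9 of the second (highest 0.00349), which include leaving out each of the 6 libraries. Error in sharing reads out between isoforms is not part of the spread in these tests. Tested as single transcripts, Map7d2-201 (-1.70 ± 0.25, SE) and Map7d2-203 (0.47 ± 0.082) did not pass, each with an adjusted p of 0.389 by edgeR. Map7d2-201 did pass (adjusted p = 0.0401, edgeR) when I0-E0 replicate 3 was left out of the fit, a setting not planned beforehand. That library is outside this comparison and had 19957 genes with a read, the most in batch 1. The other exposed groups are set beside these values and share the NC libraries with them. Map7d2-201 was at 17.2, 14.4 and 28.00 CPM in I0-E0, 22.2, 24.2 and 21.5 CPM in I0-E2 and 10.6, 7.86 and 6.35 CPM in I2-E2. Each of these 9 libraries lay below the lowest NC library. The direct comparison of isoform shares gave an adjusted p of 0.171 for I0-E4 against I0-E2 and 0.385 against I0-E0 by edgeR's usage test, so no difference from the shorter exposures was called.

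**Figure D1:**
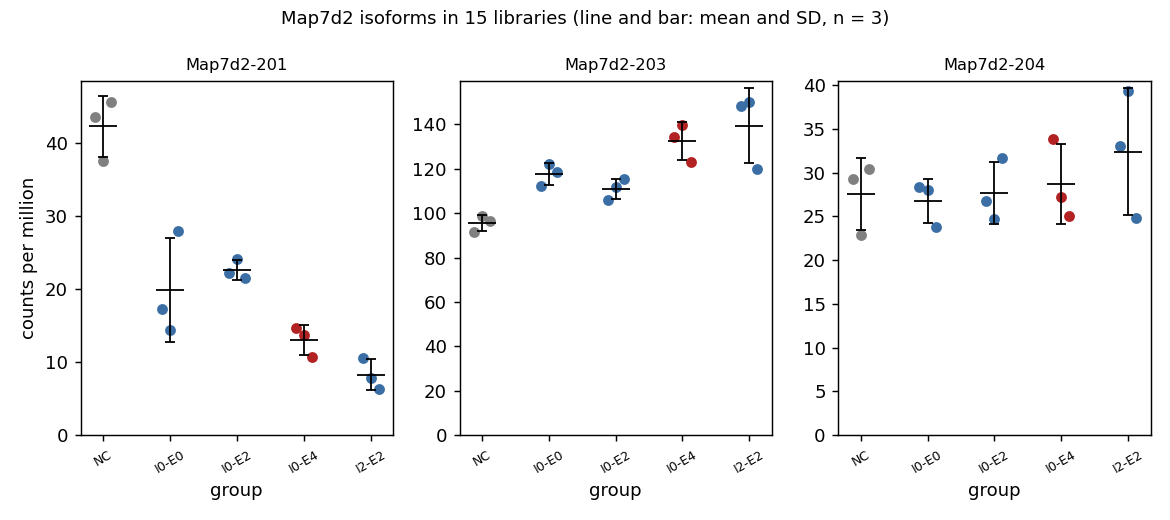
CPM (vertical axes, from 0) of 3 Map7d2 isoforms in the 15 libraries of batch 1, by group, with each dot a library and the line and bar the mean and SD of 3. Map7d2-201 is highest in the 3 NC libraries and lower in all 12 exposed libraries, Map7d2-203 is lowest in NC, and Map7d2-204 overlaps between groups.

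The isoforms differ at the start of the gene. In GENCODE vM21 (build GRCm38), Map7d2-203 starts at chrX:159414572 and Map7d2-201 starts inside the gene at chrX:159459125, and both have the length that the deposited files list, 3670 and 3087 bases. Map7d2-201 also joins its first exon straight to a later exon and skips a coding exon of 99 bases, chrX:159460267-159460365 on the plus strand, that Map7d2-203 holds. Both junctions are printed because reads across them tell Map7d2-203 from Map7d2-201. The junction of Map7d2-204 was not looked up. The capitals mark the exon that Map7d2-201 lacks, with 30 bases of the neighbouring exons on either side.
Map7d2-203 across the exon: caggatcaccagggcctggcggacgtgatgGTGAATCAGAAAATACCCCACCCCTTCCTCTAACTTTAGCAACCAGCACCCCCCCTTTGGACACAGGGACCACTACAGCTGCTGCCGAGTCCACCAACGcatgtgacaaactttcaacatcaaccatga
Map7d2-201 across the skip: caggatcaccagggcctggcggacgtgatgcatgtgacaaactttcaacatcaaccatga
Compared among the tested isoforms of the gene, 774 31-base words were found in Map7d2-203 alone, 251 in Map7d2-201 alone and 0 in Map7d2-204 alone. The first pair thus has sequence of its own among the tested isoforms, and Map7d2-204 rests on how reads were shared out. The 250 bases before each start, from the RefSeq promoters of GRCm38.p6, are shown next because the 2 isoforms have separate annotated starts. Use of these promoters was not tested.
Before the upstream start, chrX:159414322-159414571, plus strand: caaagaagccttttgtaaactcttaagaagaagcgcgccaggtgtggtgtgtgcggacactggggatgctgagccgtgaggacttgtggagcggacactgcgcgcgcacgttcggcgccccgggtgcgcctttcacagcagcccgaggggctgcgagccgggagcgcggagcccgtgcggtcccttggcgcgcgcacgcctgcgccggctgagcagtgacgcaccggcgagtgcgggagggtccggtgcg
Before the internal start, chrX:159458875-159459124, plus strand: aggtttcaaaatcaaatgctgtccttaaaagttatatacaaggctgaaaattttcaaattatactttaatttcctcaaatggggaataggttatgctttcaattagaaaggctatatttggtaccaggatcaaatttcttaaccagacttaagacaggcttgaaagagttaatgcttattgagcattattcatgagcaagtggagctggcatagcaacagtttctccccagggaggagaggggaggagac
The upstream stretch held 32 CG dinucleotides and 69.2% G and C, more CG than 95.4% of all RefSeq promoter stretches of that length. The internal stretch held 0 CG dinucleotides and 37.2% G and C.

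No gene passed, so the 10 genes a direction with the smallest unadjusted p were taken among those whose groups did not overlap and that had at least 95% of their 31-base words to themselves, each with an adjusted p of 0.61 by edgeR. Of the 10 above NC, Chchd6, a subunit of the MICOS complex that shapes mitochondrial cristae (chr6:89383146-89595652, GRCm38), was at 14.7, 13.1 and 15.5 CPM in the NC libraries and 21.2, 21.9 and 18.9 CPM in the I0-E4 libraries. Its difference was 0.52 ± 0.11 (SE). Crocc, which encodes rootletin, the fibre protein that ties centrioles together (chr4:141016637-141060550), was at 19.8, 19.4 and 26.6 CPM in the NC libraries and 34.97, 28.5 and 31.9 CPM in the I0-E4 libraries, a difference of 0.55 ± 0.12 (SE). Both genes had 3 I0-E4 libraries above all NC libraries, with the lowest I0-E4 value of Crocc close to the highest NC value. Lmna, the gene of the nuclear lamins A and C (chr3:88480147-88509956), was at 101, 95.3 and 99.1 CPM in the NC libraries and 129, 119.8 and 116 CPM in the I0-E4 libraries, a difference of 0.30 ± 0.073 (SE). Dusp1, an early-induced phosphatase of MAP kinases (chr17:26505590-26562128), was at 21.05, 20.6 and 22.9 CPM in the NC libraries and 30.1, 29.4 and 24.4 CPM in the I0-E4 libraries, a difference of 0.38 ± 0.10 (SE). Replicate 3 of I0-E4 was the lowest of the 3 for Chchd6, Lmna and Dusp1. The other 6 were Fam171a2 (0.47), Cyth1 (0.40), Fggy (0.57), Avpi1 (0.77), Ufc1 (0.25) and Mcam (0.26), where Cyth1 is an exchange factor of ARF GTPases, Ufc1 the conjugating enzyme of the ubiquitin-like modifier UFM1, and Mcam a cell adhesion molecule. In I0-E2, I0-E0 and I2-E2, which are set beside these values, Chchd6 averaged 17.7 ± 0.71, 17.4 ± 1.86 and 17.1 ± 1.30 CPM (SD, n = 3), and Crocc 24.6 ± 0.853, 24.7 ± 3.36 and 32.6 ± 0.282, the last within the range of the I0-E4 libraries.

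Of the 10 below NC, Lrrn3, a leucine-rich repeat membrane protein of neurons (chr12:41451668-41486431), had the smallest p of all genes. It was at 74.7, 78.3 and 77.5 CPM in the NC libraries and 58.9, 62.98 and 59.98 CPM in the I0-E4 libraries, a difference of -0.34 ± 0.067 (SE), unadjusted p = 8.83e-05 and adjusted p = 0.61 by edgeR. Lats1, a kinase of the Hippo pathway (chr10:7681214-7716460), was at 118, 119 and 117 CPM in the NC libraries and 94.8, 88.7 and 103 CPM in the I0-E4 libraries, a difference of -0.30 ± 0.067 (SE). The 3 NC values of Lats1 lay closer together than the 3 I0-E4 values. Ccnt2, a cyclin of the elongation kinase P-TEFb (chr1:127774164-127808061), was at 51.1, 55.3 and 56.9 CPM in the NC libraries and 35.4, 36.7 and 44.1 CPM in the I0-E4 libraries, a difference of -0.48 ± 0.11 (SE). Chac1, an enzyme that degrades glutathione and a target of ATF4 (chr2:119351229-119354381), was at 38.8, 36.3 and 35.3 CPM in the NC libraries and 30.1, 28.7 and 22.9 CPM in the I0-E4 libraries, a difference of -0.45 ± 0.11 (SE). Replicate 3 of I0-E4 was nearest to NC for Lats1 and Ccnt2 and farthest from NC for Chac1. The other 6 were Rnf219 (-0.40), Zfp462 (-0.40), Rasa2 (-0.41), Usp25 (-0.44), Plekhm3 (-0.52) and Ints9 (-0.42), where Rasa2 is a GTPase-activating protein for RAS, Usp25 a ubiquitin protease and Ints9 a subunit of the Integrator complex. All 20 genes kept the sign of their difference in all 18 alternatives, and 8 of them passed the threshold in 1, the test without a filter on low counts. Non-overlapping libraries were part of the rule that chose them.

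**Figure D2:**
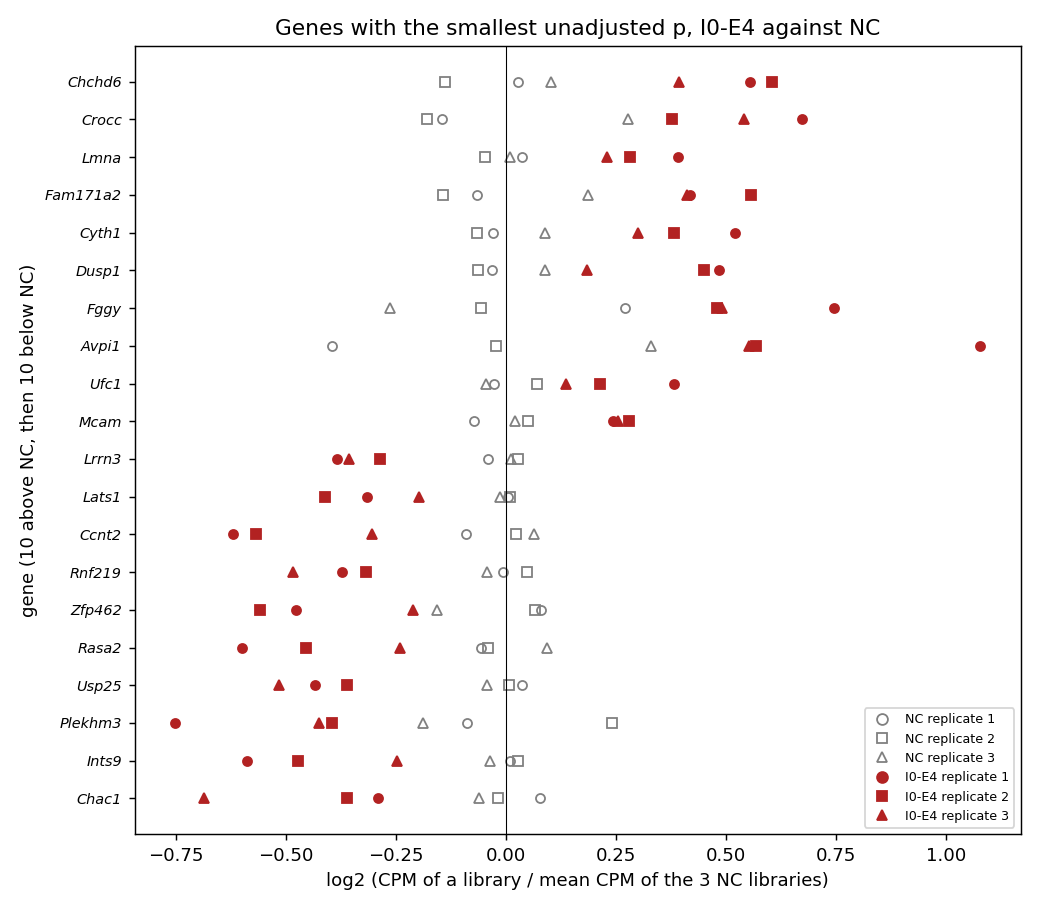
Level of 20 genes, the 10 a direction with the smallest unadjusted p among those with no overlap between groups and few shared words, as log2 of a library's CPM over the mean CPM of the 3 NC libraries (horizontal axis), with open grey symbols for NC and filled red symbols for I0-E4, 1 shape a replicate. The first 10 genes lie above NC and the last 10 below in all 3 I0-E4 libraries, none with an adjusted p under 0.05.

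Some of the smallest p-values belonged to genes that share reads with a copy. Both entries named Fam220a differed in opposite directions: the 1 at 17.1 ± 8.56 CPM in NC was at 5.89 ± 0.237 in I0-E4, and the other was at 28.9 ± 5.77 in NC and 39.3 ± 1.19 CPM in I0-E4 (SD, n = 3). The NC replicate 2 value of the first, 7.27 CPM, was near I0-E4, and without that library it passed in edgeR as well (adjusted p = 0.000971). The first was also the 1 gene that DESeq2 called (adjusted p = 0.0164), with 38.8% of its 31-base words found in no other gene, and how reads were split between the copies is uncertain.

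Of the 24 stress and cell cycle markers, 22 could be tested and none passed. By unadjusted p, 1 lay above NC and 1 below, against 4.17% and 3.76% of all genes, and the median was 0.012, against 0.003 over all genes. The interval of the difference lay within 1.5-fold for 20 of the 22. The immediate-early gene Fos, which is induced within minutes in stimulated cells, was at 6.25, 7.02 and 6.18 CPM in the NC libraries and 6.90, 6.02 and 6.50 CPM in the I0-E4 libraries, a difference of -0.0017 ± 0.17 (SE). The groups overlapped for Fos and for Fosb (-0.62), Jun (-0.049), Ier2 (0.17) and Atf3 (0.16). Egr1, a zinc finger factor induced through ERK, was the marker below NC: it was at 18.4, 21.4 and 21.2 CPM in the NC libraries and 10.9, 17.2 and 12.4 CPM in the I0-E4 libraries, a difference of -0.61 ± 0.16 (SE) with an adjusted p of 0.61 by edgeR. All 3 I0-E4 libraries lay below NC, and Egr1 passed the threshold only in the test without a filter on low counts. The chaperones Hsph1 (0.01), Dnajb1 (0.049) and Hspa8 (0.015) and the antioxidant genes Hmox1 (0.058), Srxn1 (0.046), Nqo1 (-0.10) and Txnrd1 (0.013) overlapped between the groups. Hspa1a had no count in any of the 15 libraries, and Hspa1b, its inducible HSP70 neighbour, had 0 to 2 counts in 5 of the 6 libraries and 5 in I0-E4 replicate 3.

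Hspa5, the main chaperone of the endoplasmic reticulum, was the marker above NC. It was at 813, 807 and 848 CPM in the NC libraries and 942, 900.4 and 863 CPM in the I0-E4 libraries, a difference of 0.13 ± 0.052 (SE) with an adjusted p of 0.61 by edgeR. The lowest I0-E4 library, replicate 3, was close to the highest NC library. The stress-induced factors Ddit3 and Trib3 differed by -0.17 and -0.03, and the p53 targets Cdkn1a, Mdm2 and Gadd45a by -0.021, -0.0074 and 0.18. The proliferation gene Mki67 was at 714, 736 and 739 CPM in the NC libraries and 588, 627 and 723 CPM in the I0-E4 libraries, a difference of -0.17 ± 0.092 (SE), with the 2 lowest values in I0-E4 replicates 1 and 2 and replicate 3 among the NC libraries. Pcna and Ccnb1 differed by 0.12 and 0.025. Among these, Jun, Hspa8, Ddit3, Cdkn1a, Gadd45a, Pcna and Ccnb1 share more than 5% of their 31-base words with other genes, so part of their reads could belong elsewhere.

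**Figure D3:**
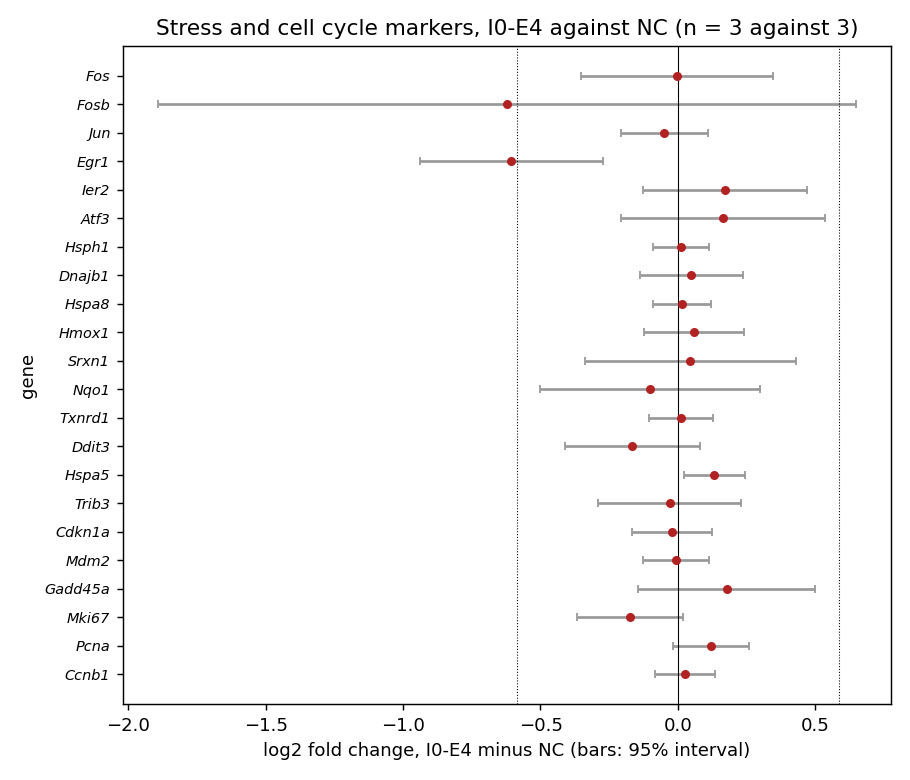
Difference of the 22 tested stress and cell cycle markers, as log2 of I0-E4 over NC (horizontal axis), with 95% intervals as bars and dotted lines at 1.5-fold. The intervals of 20 lie within the 1.5-fold lines, Egr1 (-0.61) and Hspa5 (0.13) have intervals clear of 0 before correction, and none has an adjusted p under 0.05.

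Among 19 tested feedback genes of the ERK pathway, whose products dampen growth factor signals, 1 lay above and 4 below NC at an unadjusted p under 0.05 (4.17% and 3.76% of all genes), and none passed the correction. The median was -0.12, against 0.003 over all genes. Dusp6, a phosphatase of ERK, was at 75.4, 61.8 and 60.8 CPM in the NC libraries and 55.1, 50.8 and 52.4 CPM in the I0-E4 libraries, a difference of -0.33 ± 0.095 (SE). Spry4, an inhibitor of receptor signalling, was at 14.1, 11.02 and 12.1 CPM in the NC libraries and 7.67, 9.13 and 9.51 CPM in the I0-E4 libraries, a difference of -0.49 ± 0.15 (SE). Errfi1, an inhibitor of the EGF receptor, was at 21.6, 25.1 and 19.8 CPM in the NC libraries and 16.9, 16.8 and 17.6 CPM in the I0-E4 libraries, a difference of -0.38 ± 0.13 (SE). All 3 had each I0-E4 library below each NC library. Spry2 differed by -0.20 with overlapping groups, and Dusp1 was on the other side of NC (0.38). The medians of the list in I0-E4 replicates 1, 2 and 3 were -0.085, -0.083 and -0.058, while the NC replicates spanned -0.074 to 0.043, so the groups overlapped in this measure. Of 33 tested immediate-early genes, 1 above and 2 below NC had an unadjusted p under 0.05, with a median of -0.049. Jund (0.24) was above, Egr1 and Btg2 (-0.59) were below, and the range ran from Fosb (-0.62) to Ier5l (0.34). Jund has 49.9% of its words to itself.

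No member of the lists of protein and oxidative stress genes passed the correction, and the list medians lay between -0.00029 and 0.069. The 29 heat shock response genes had a median of 0.046 and a range from Hspa4l (-0.096) to Dnajb4 (0.34). Of these genes, 0 above and 0 below NC had an unadjusted p under 0.05 (4.17% and 3.76% of all genes). Of 34 oxidative stress genes, 1 above and 0 below NC did, with a median of 0.069. Sqstm1, which encodes the autophagy receptor p62, was at 241, 236 and 252 CPM in the NC libraries and 306, 266 and 266 CPM in the I0-E4 libraries, a difference of 0.20 ± 0.07 (SE), while Nfe2l2, the gene of NRF2, differed by -0.23 and Prdx5 by 0.24. Of 27 genes of the unfolded protein response, 2 above and 0 below NC had such a p, Hspa5 and the chaperone-associated gene Sdf2l1 (0.35), with a median of 0.059 and Sel1l (-0.14) as the lowest. Of 27 genes of the integrated stress response, 0 above and 3 below NC did: Chac1 (-0.45), Mthfd2 (-0.13) and Ppp1r15b (-0.16), which are ATF4 targets and a phosphatase subunit for eIF2 alpha. The highest of that list was Cebpb (0.40), and its median was -0.00029. The oxidative stress list had 25 of 34 estimates above NC, library medians of 0.11, 0.11 and 0.0085 in I0-E4 replicates 1, 2 and 3 against -0.023 to 0.0044 in NC, and 18 members in the lowest of 4 bins by transcript length. Without I0-E4 replicate 3, 8.85% of all genes lay above NC and 7.6% below at an unadjusted p under 0.05. In that setting the heat shock, oxidative stress and unfolded protein lists had 5, 9 and 4 members above and 0, 2 and 0 below. The integrated stress response list had 1 above and 2 below.

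Genes of DNA damage and cell death lay on both sides of NC. The 28 p53 and DNA damage response genes had a median of 0.02. Of these genes, 2 above and 3 below NC had an unadjusted p under 0.05 (4.17% and 3.76% of all genes). Gadd45g, a growth arrest gene, was at 23.3, 22.6 and 28.8 CPM in the NC libraries and 39.1, 33.8 and 30.2 CPM in the I0-E4 libraries, a difference of 0.47 ± 0.16 (SE), and the death effector Bax (0.30) was also above NC. Those below were Btg2 (-0.59), Mdm4 (-0.23) and Zmat3 (-0.20), and the highest estimate was that of the low-level gene Trp53inp1 (0.58). Of 50 DNA repair genes, 1 above and 1 below NC did, H2afx (0.18) and Rad51c (-0.29), with a range from Xrcc2 (-0.30) to Xpc (0.23) and a median of -0.018. Of 27 apoptosis regulators, 3 above and 2 below NC did. Above NC were Bax (0.30), Bad (0.30) and Endog (0.44), and below were the survival genes Bcl2 (-0.37) and Xiap (-0.20), with Birc3 (0.68), at about 2 CPM, as the highest estimate. Bax was at 78.8, 83.6 and 88.3 CPM in the NC libraries and 121, 99.1 and 87.4 CPM in the I0-E4 libraries, so replicate 3 of I0-E4 lay inside the NC range. Without that library, the p53, DNA repair and apoptosis lists had 5, 4 and 6 members above NC and 3, 3 and 3 below, against 8.85% and 7.6% of all genes. Bax, Bad, Endog, Bcl2 and Birc3 share more than 5% of their words with other genes.

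Of 26 membrane repair genes, which seal torn plasma membrane, 2 above and 1 below NC had an unadjusted p under 0.05: the ESCRT-III subunits Chmp2a (0.25) and Chmp4b (0.28) above and the vesicle calcium sensor Syt7 (-0.23) below, with a median of 0.078. Of 38 S phase genes, 3 above and 0 below NC did, Mcm5 (0.17), Rrm1 (0.12) and Slbp (0.16), with a median of 0.057 and a range from Rfc1 (-0.089) to Rfc4 (0.25). Mcm5, a subunit of the replicative helicase, was at 242, 246 and 244 CPM in the NC libraries and 281, 279.7 and 264 CPM in the I0-E4 libraries, a difference of 0.17 ± 0.05 (SE), with the 3 NC libraries close together and below all I0-E4 libraries. Of 38 G2 and mitosis genes, 0 above and 1 below NC did, the kinetochore motor gene Cenpe (-0.23), with a median of -0.0019 and Birc5 (0.23) as the highest. Of 20 lamin and nuclear envelope genes, 4 above and 0 below NC did (4.17% and 3.76% of all genes): Lmna (0.30), Lmnb1 (0.15), Lmnb2 (0.20) and Lemd2 (0.36). Lmnb2 was at 74.6, 67.9 and 80.2 CPM in the NC libraries and 90.3, 81.1 and 83.7 CPM in the I0-E4 libraries, a difference of 0.20 ± 0.068 (SE). An offset for changes between libraries in a gene's mean transcript length left the lamin list with 2 members above and 1 below. In that setting, 394 of all 12302 genes lay above NC and 430 below at an unadjusted p under 0.05. The ERK feedback median was -0.055 there, with 1 member above and 3 below. In the main test the lamin list's median was 0.016, and its lowest member was Syne1 (-0.21). Of the 14 centrosome linker genes, 1 above and 1 below NC did, Crocc and Akap9 (-0.20), with Ninl (-0.40) as the lowest. Lmna and Crocc were also among the genes named for a small p. The gene lists were chosen with earlier results of these data known, so their counts are no independent support. Without I0-E4 replicate 3, the membrane repair, S phase and mitosis lists had 7, 10 and 3 members above NC and 2, 1 and 3 below, against 8.85% and 7.6% of all genes.

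Of the lists with at least 10 tested members, those with the highest medians were housekeeping complexes, and 2 of the 3 I0-E4 libraries lay above NC in them while replicate 3 did not. For 77 genes of cytosolic ribosomal proteins, 73 had an estimate above NC, 7 above and 0 below NC had an unadjusted p under 0.05 (4.17% and 3.76% of all genes), none passed the correction, and the median was 0.14. The list medians in I0-E4 replicates 1, 2 and 3 were 0.18, 0.27 and -0.033, and those of the NC libraries ran from -0.031 to 0.024. Rpl3, a core protein of the large subunit, was at 212, 256 and 238 CPM in the NC libraries and 364, 332 and 245 CPM in the I0-E4 libraries, a difference of 0.41 ± 0.13 (SE), with replicate 3 inside the NC range. Rpl3 was the highest and Rpl30 (-0.076) the lowest of the list, and the others with such a p were Rps21 (0.31), Rpl38 (0.29), Rps2 (0.26), Rps20 (0.25), Rps18 (0.21) and Rpl37 (0.18). All of these share over 5% of their words with other genes. For 75 nuclear-encoded subunits of oxidative phosphorylation, 72 had an estimate above NC, 11 above and 0 below NC had an unadjusted p under 0.05, and the median was 0.14. The medians in the 3 I0-E4 libraries were 0.24, 0.26 and -0.026. Cyc1, the cytochrome c1 of complex III, was at 349, 341 and 359.8 CPM in the NC libraries and 393, 424 and 371 CPM in the I0-E4 libraries, a difference of 0.18 ± 0.065 (SE). The other 10 were Ndufs7 (0.35), Atp5k (0.33), Ndufb8 (0.29), Ndufc1 (0.29), Ndufb2 (0.28), Cox6b1 (0.27), Uqcr11 (0.27), Ndufab1 (0.22), Atp5g3 (0.21) and Sdhb (0.21), with a range of the list from Atp5g2 (-0.16) to Atp5e (0.38).

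For 32 proteasome subunits, 30 had an estimate above NC, with a median of 0.12 and library medians of 0.19, 0.16 and 0.0077. Of the subunits, 5 above and 0 below NC had an unadjusted p under 0.05 (4.17% and 3.76% of all genes). Those 5 were Psmb1 (0.20), Psmd3 (0.18), Psmd8 (0.18), Psma5 (0.17) and Psmd14 (0.17), and the range ran from Psmd11 (-0.037) to Psma3 (0.23). Without I0-E4 replicates 1 and 2, the medians of the ribosomal protein, oxidative phosphorylation and proteasome lists were -0.034, -0.028 and 0.0067, a setting chosen after seeing the data that leaves 1 I0-E4 library, in which 0.976% of all genes lay above and 1.66% below NC at an unadjusted p under 0.05. Without replicate 3 they were 0.22, 0.23 and 0.19, with 46 of 77, 49 of 75 and 16 of 32 members above NC at such a p, against 8.85% of all genes, and still no gene passed the correction. The 13 mRNAs of the mitochondrial genome lay otherwise: their library medians were -0.36, 0.15 and -0.36, with replicates 1 and 3 below and replicate 2 above NC, and 0 above and 0 below NC had an unadjusted p under 0.05, from mt-Nd4l (-0.39) to mt-Nd3 (0.12).

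**Figure D4:**
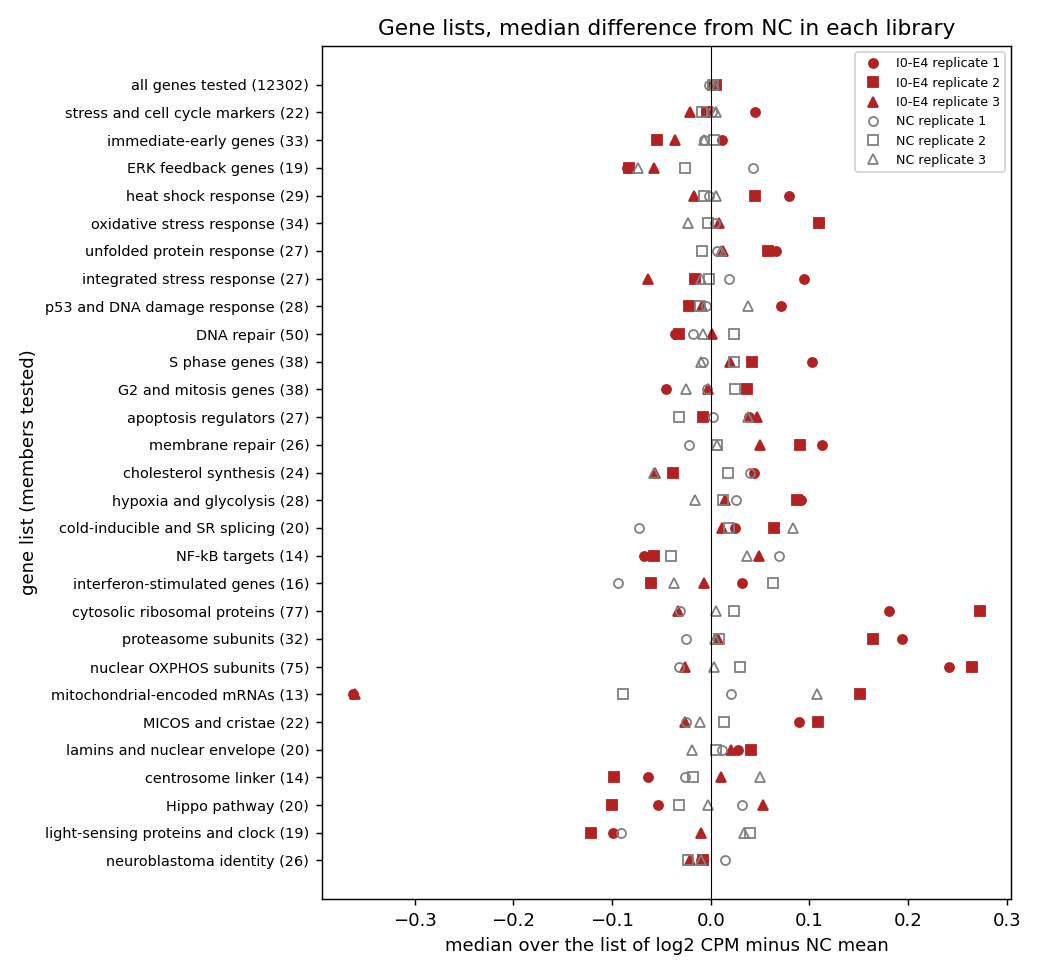
Median over each gene list of a library's log2 CPM minus the NC mean (horizontal axis), for lists with at least 10 tested members, with filled red symbols for I0-E4 and open grey symbols for NC, 1 shape a replicate. Replicates 1 and 2 of I0-E4 lie right of NC for the ribosomal protein, proteasome and oxidative phosphorylation lists, while replicate 3 lies at or near them.

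The same 2 libraries lay apart from NC by the length of transcripts. When the tested genes were put into 4 bins of equal size by the length of their most abundant transcript, the shortest bin (up to 1569 bases) had medians of 0.13, 0.14 and -0.018 in I0-E4 replicates 1, 2 and 3. The longest bin (from 4146 bases) had -0.11, -0.12 and 0.0099. The NC libraries lay between -0.027 and 0.024 in the shortest bin and between -0.016 and 0.02 in the longest. At an unadjusted p under 0.05, 240 of 3077 genes in the shortest bin lay above NC (7.8%) and 38 below (1.23%). In the longest bin 23 of 3072 lay above (0.749%) and 258 below (8.4%). Over all genes tested the shares were 4.17% above and 3.76% below. By the share of G and C in the transcript, the richest bin of 3074 genes had 273 above (8.88%) and 50 below (1.63%). The poorest bin of 3074 had 49 above (1.59%) and 161 below (5.24%). Of the ribosomal protein, oxidative phosphorylation and proteasome lists, 74, 64 and 19 members were in the shortest bin. With the offset for changes between libraries in mean transcript length, their medians were 0.14, 0.14 and 0.11, with 6, 10 and 2 members above NC. In that setting 394 of all 12302 genes lay above NC at an unadjusted p under 0.05. That offset does not correct for short against long genes, so the part of transcript length in these list medians was not tested. Among the other exposed libraries of batch 1 the median of the shortest bin ran from -0.038 to 0.18, both ends in I2-E2.

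**Figure D5:**
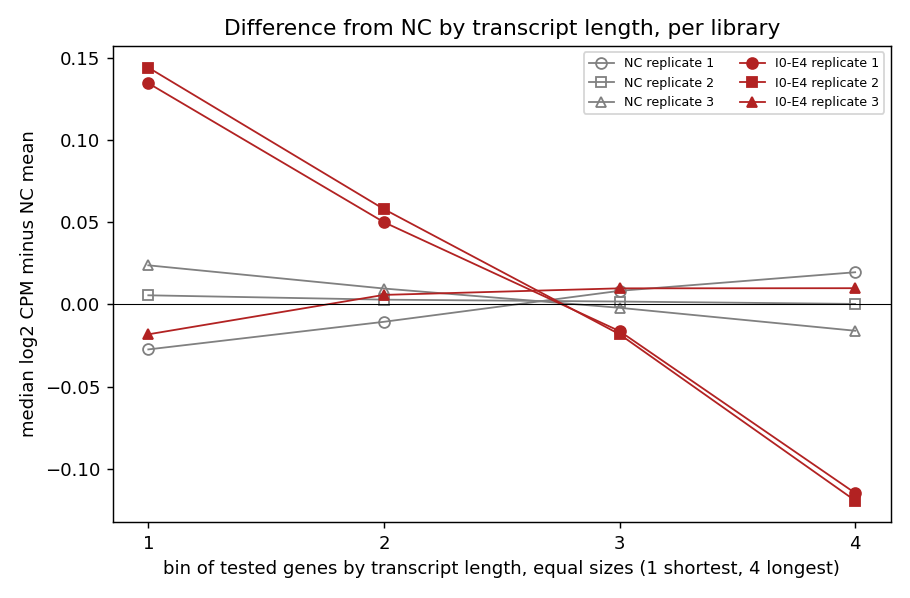
Median of a library's log2 CPM minus the NC mean (vertical axis) for the tested genes in 4 bins of transcript length (horizontal axis), 1 line a library, red for I0-E4 and grey for NC. Lines of I0-E4 replicates 1 and 2 run from 0.13 and 0.14 to -0.11 and -0.12, and that of replicate 3 stays with NC.

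By all genes with at least 10 CPM, replicate 3 was the I0-E4 library nearest to NC. The SD of its log2 difference from the NC mean was 0.14, against 0.24 and 0.24 in replicates 1 and 2 and 0.13 to 0.16 for an NC library against the other two. It lay past 1.5-fold for 42 of 9066 genes, and replicates 1 and 2 did for 111 and 94. Of 5 measures of whole libraries none passed an exact permutation test, in which 3 against 3 libraries cannot go below p = 0.1. The nearest was the share of counts on ribosomal protein genes, 4.85, 5.03 and 4.22% in I0-E4 and 4.19, 4.34 and 4.34% in NC (two-sided exact p = 0.3, adjusted p = 0.75 over the 5). Mitochondrial mRNAs took 1.36, 1.90 and 1.34% and 1.78, 1.60 and 1.82% (exact p = 0.4). The number of genes with a read was 16420, 15988 and 16960 in I0-E4 and 16430, 16852 and 16656 in NC (exact p = 0.6).

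Of the other lists, the 28 hypoxia and glycolysis genes had a median of 0.059 and Vegfa (-0.11) as the lowest. Of these genes, 3 above and 0 below NC had an unadjusted p under 0.05 (4.17% and 3.76% of all genes): Pfkl (0.24), Slc2a1 (0.21) and Pkm (0.14). Of 22 MICOS and cristae genes, 3 above and 0 below NC did, Chchd6, Chchd2 (0.28) and Phb2 (0.15), with Oma1 (-0.38) as the lowest. Library medians of the cristae list were 0.089, 0.11 and -0.026 in I0-E4 replicates 1, 2 and 3, with 12 members in the bin of shortest transcripts, and those of the hypoxia and glycolysis list were 0.091, 0.088 and 0.015, so replicates 1 and 2 stood above replicate 3 in both. Of 20 cold-inducible and splicing factor genes, 2 above and 1 below NC did, Srsf2 (0.15) and Srsf3 (0.19) and Prpf38b (-0.25), with Cirbp (0.25), the cold-inducible RNA-binding protein, as the highest. Of 24 cholesterol synthesis genes, 0 above and 1 below NC did, the regulator Srebf2 (-0.17), with Tm7sf2 (0.28) as the highest. Of 20 Hippo pathway genes, 0 above and 1 below NC did, Lats1, with Lats2 (-0.48) and Tead3 (0.31) at the ends. Of 5 tested heat-sensitive TRP channels, 1 above and 0 below NC did, Trpv2 (0.18), with Trpm3 (-0.26) as the lowest. Of 26 neuroblastoma genes, 1 above and 2 below NC did: the filament gene Prph (0.22) above and the lineage factors Isl1 (-0.29) and Gata3 (-0.24) below, with Th (0.23) as the highest. Without I0-E4 replicate 3, the cristae, splicing factor and neuroblastoma lists had 6, 5 and 6 members above NC and 0, 1 and 3 below. The Hippo list had 0 above and 4 below. In that setting 8.85% of all genes lay above and 7.6% below at an unadjusted p under 0.05. No member of the NF-kB target, interferon-stimulated, or light-sensing and clock lists had such a p, and their ends were Vcam1 (-1.19) and Birc3 (0.68), Usp18 (-0.75) and Ifit2 (0.55), and Rrh (-1.02) and Sag (0.34), all at low levels. The 1 tested nuclear-retained RNA, Snhg11 (-0.25), had no such p either. Chchd6 and Lats1 were also among the genes named for a small p, and these lists too were chosen with earlier results known.

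Of 32228 transcripts tested singly, none passed an adjusted p of 0.05 (0%; smallest 0.389, edgeR), and 1570 had an unadjusted p under 0.05 (4.87%). Beside Map7d2, the 5 a direction with the smallest p included a pair with levels above 40 CPM in both groups. Tmem164-201, of a multi-pass membrane protein, was at 80.6, 86.5 and 75.5 CPM in NC and 106, 117 and 111 in I0-E4, a difference of 0.46 ± 0.089 (SE). Jph4-201, of a junctophilin that joins the endoplasmic reticulum to the plasma membrane in neurons, was at 61.05, 63.6 and 59.7 CPM and 43.1, 43.02 and 48.7, a difference of -0.45 ± 0.077 (SE). Tbc1d14-201 averaged 27.1 ± 2.80 CPM in NC and 2.92 ± 0.269 in I0-E4 (SD, n = 3) and is described with the isoform shares. The others, Ube2a-208, Unc80-203, Patz1-202, Phldb3-204 and Atrx-209, were listed at or near 0 in 1 of the groups and averaged between 0.917 and 7.32 CPM in the other.

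Of 7507 genes with at least 2 tested isoforms, edgeR's usage test called 26 at an adjusted p under 0.05 (0.346%), and 731 had an unadjusted p under 0.05 (9.74%). limma's diffSplice called 1, Map7d2 (0.0133%), with 661 at an unadjusted p under 0.05 (8.81%). In the main tests the other 25 genes were called by edgeR's alone, and they are given as values. In 22 of the 26 an isoform had under 50 31-base words of its own. Tbc1d14, a regulator of autophagy, had values for a pair of isoforms that did not overlap. Tbc1d14-201 was at 30.03, 26.9 and 24.5 CPM in NC and 3.23, 2.75 and 2.79 in I0-E4, and Tbc1d14-215 was at 0 in NC and 25.7, 16.8 and 18.7 in I0-E4. These isoforms have 42 and 34 words of their own, and the adjusted p was 0.00447 by edgeR and 0.122 by limma. Fam13c-201, with 0 words of its own, was at 19.2, 11.8 and 10.3 CPM in NC and 0 in all I0-E4 libraries, while Fam13c-202 and Fam13c-203 had higher means. Nup85-209, of a nuclear pore subunit, was at 1.60, 3.53 and 7.07 CPM in NC and 0 in I0-E4. Ahcyl1-203, Nr1h2-204, Apoo-201, Azi2-205, Nr1h2-202 and Tm2d2-203 likewise were listed at 0 in at least 2 libraries of 1 group. By limma the adjusted p of the genes named here beside Map7d2 ran from 0.122 to 0.465. In limma's 9 alternatives, Tbc1d14 passed in 2 and Ahcyl1 and Nr1h2 in 1 each.

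Set directly against the shorter exposures at the same intensity, which share no library with NC, no gene passed an adjusted p of 0.05 in edgeR's test. Against I0-E2, 0 of 12302 genes did (0%; smallest adjusted p 0.999, edgeR), and 394 had an unadjusted p under 0.05 (3.2%), 188 above and 206 below. DESeq2 called 1 gene against I0-E2, Gm7332, with 9.67% of its words found in no other gene, and 0 against I0-E0. Against I0-E0, 0 did (0%; smallest 0.965), and 557 had such a p (4.53%), 211 above and 346 below. The smallest p with no overlap against I0-E2 belonged to Adap1 (0.68), Ppa2 (0.33) and Rin1 (0.51) above and Numb (-0.34), Rad51c (-0.38) and Kbtbd8 (-0.57) below, as log2 of I0-E4 over I0-E2. Numb, an inhibitor of Notch signals, averaged 21.4 ± 0.326 CPM in I0-E4, 27.1 ± 1.25 in I0-E2 and 25.9 ± 1.49 in NC (SD, n = 3). Against I0-E0 they were Pop4 (0.40), Dnajb4 (0.61) and Ndufaf8 (0.54) above and Usp25 (-0.49), Atmin (-0.27) and Zfp462 (-0.41) below. Dnajb4, a co-chaperone of HSP70, averaged 8.36 ± 1.14 CPM in I0-E4, 5.42 ± 0.393 in I0-E0 and 6.60 ± 1.04 in NC. Usp25 and Zfp462, which were also among the 20 genes against NC, share the I0-E4 libraries between both comparisons. For isoform shares, edgeR's usage test called 11 genes against I0-E2 (0.147%) and 23 against I0-E0 (0.306%), and limma's called 3 (0.04%) and 0 (0%).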

How the data were processed

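Poly(A) RNA of the N2A wells was sequenced from NEBNext Ultra II libraries. The authors quantified transcripts with Salmon (version, options, genome build and annotation release not given in the sources used here) and deposited, for each sample, estimated counts and TPM per transcript. Estimated counts were summed by gene through GENCODE vM21 (GRCm38), which named 98.7% of the listed transcripts, and rounded. The unmatched transcripts held 0.634 to 0.683% of the counts and were left out. Groups came from the sample titles. The 15 libraries of batch 1 entered 1 fit (filterByExpr with a minimum count of 10, TMM scaling, edgeR 4.0.16 quasi-likelihood test in R 4.3.3, Benjamini-Hochberg adjustment, 10 residual degrees of freedom, common coefficient of variation 8.26%). Batch 2 was not used. Isoform shares were tested with edgeR's diffSpliceDGE and, added after the former was tested on simulated data, with limma 3.58.1 (voom, diffSplice). DESeq2 1.42.0 was an alternative.

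Libraries held 5623685 to 8322567 estimated counts in I0-E4 and NC, so precision was lowest for genes near the filter. Genes were named by rule: those past the threshold, or else the 10 a direction with the smallest p, no overlap between groups and at least 95% of 31-base words in no other gene, all stress and cell cycle markers, and of each other list its ends and its members with an unadjusted p under 0.05. The samples compared and the gene lists were chosen with earlier results of these data known. Of the 12302 genes tested, 4603 had under 95% of their 31-base words to themselves, and not every such gene is marked in the text. Replicate numbers did not pair the samples (same-number correlations of deviations 0.013, -0.013 and 0.022), and no 2 libraries within NC or within I0-E4 agreed within sampling noise. Alternatives were other scaling, filters, tools, samples in the fit, a replicate block and leaving out each library. Sequences came from the GENCODE transcripts and the RefSeq promoter table. A few genes are not reported here.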

Additional observations from a re-analysis of the deposited data

Results flagged for a closer look

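Isoform shares of I0-E4 were compared directly with those of the shorter exposures. edgeR's usage test called 11 genes for I0-E4 against I0-E2 and 23 against I0-E0, where limma's diffSplice called 3 (Cul4b, Sec16a and Katna1) and 0. Among the genes with the smallest p against NC, Tbc1d14 had an adjusted p of 0.0137 against I0-E2 by edgeR and 0.15 by limma. Fam13c had 0.0356 against I0-E2 by edgeR and 0.467 by limma, and Ahcyl1 had 0.0356 by edgeR and 0.179 by limma. limma called none of these 3 genes, which each have an isoform with under 50 31-base words of its own.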

How the results depend on the processing

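For genes against NC, calls at an adjusted p under 0.05 were 0 in the main test, 1 with DESeq2, 173 without a filter and 0 to 1 when 1 library was left out (1 without NC replicate 2). At an unadjusted p under 0.05, 976 genes became 1682 without a filter, 346 without I0-E4 replicates 1 and 2, which was chosen after seeing the data, and 499 to 2061 when 1 library was left out, with 499 without I0-E4 replicate 1, 638 without NC replicate 2 and 2061 without I0-E4 replicate 3. The replicate block gave 0 and 919, and 27 genes for isoform shares, and changed no gene-level call. Where a library was left out, its group was assumed to vary like the others. Against I0-E2, DESeq2 gave 1 and 232, no filter 57 and 823, and leaving out 1 library 313 to 985 at an unadjusted p, with 985 without I0-E4 replicate 3. Against I0-E0, DESeq2 gave 356 at an unadjusted p, no filter 90 and 1157, and leaving out 1 library 392 to 1228 at an unadjusted p, with 1002 without I0-E0 replicate 1 and 1228 without I0-E4 replicate 3.

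Transcripts called were 1 with only I0-E4 and NC libraries (Tbc1d14-201) and 2 without I0-E0 replicate 3 (Map7d2-201 and Tbc1d14-201). They were 0 to 4 when 1 I0-E4 or NC library was left out. At an unadjusted p, 1570 became 2751 without a filter and 1344 to 2721 when 1 library was left out, with 2721 without I0-E4 replicate 3. For isoform shares by edgeR, 26 became 10 (411 unadjusted) with a stricter filter, 41 (323) with only both groups, 1 by limma and 18 to 56 when 1 library was left out, with 56 without I0-E4 replicate 3. By limma, 1 became 2 (368) with a stricter filter, 4 with only both groups, 7 without I0-E0 replicate 3 and 2 to 13 when 1 library was left out. Against I0-E2 and I0-E0, limma gave 3 and 0. The mitochondrial share differed by -0.203 percentage points by counts and -0.631 by TPM. The causes of these shifts were not tested. The 20 genes shown by library kept their sign in all 360 values.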
